A study of Arabidopsis thaliana with 6 samples.

Results

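Subtilases are a family of serine proteases related to bacterial subtilisin. Most plant members are made as inactive precursors, lose an inhibitory propeptide in the secretory pathway and act in the cell wall, where they trim cell wall enzymes and cut peptide hormones from their precursors. In roots, members of the family have been tied to lateral root emergence, peptide signalling and remodelling of the wall. The genes described here are 55 Arabidopsis thaliana subtilase loci chosen by locus code, which include SBT4.12 (AT5G59090). Of these, 45 had a probe set that the platform annotation assigned to exactly 1 gene, among 13286 such genes in the series. Another 4 loci shared a probe set with a neighbouring subtilase, and 6 were not analysed here: AT1G04110, AT2G04160, AT2G19170, AT4G00230, AT4G26330 and AT4G34980. Each of the 45 genes had 1 probe set, so no choice between probe sets was needed. The loci fall into 6 subfamilies, SBT1 to SBT6, taken from the family's published naming; for the 10 loci whose RefSeq name carries a subfamily number, all 10 numbers matched.

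The series compared 3 arrays of sorted G2/M cells with 3 arrays of complete root meristems, all of accession Col-0. The sorted cells came by fluorescence-activated cell sorting from roots carrying a CYCB1;1-GFP reporter, which marks cells around mitosis by the accumulation of a B-type cyclin. The meristems were cut out of roots under a microscope and hold cells of every cycle phase and tissue layer; the labels give neither a plant age nor whether the dissected roots carried the reporter. Cells and handling (sorting or dissection) differ together between the groups and cannot be told apart. A lower value in such bulk RNA can mean fewer cells of a type or less RNA per cell, and these cannot be told apart either. The series names the arrays of each group as biological replicates, and p-values measure the spread between them.

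All values are the authors' GCRMA values on the log2 scale, between 2.27 and 14.2. The lowest value, 2.27, is a floor at which no signal was resolved, and values within 0.5 of it are called the floor band here. Differences are sorted cells minus meristem, from 1 limma fit over all 22746 probe sets, and a gene is called where its Benjamini-Hochberg adjusted p is under 0.05. Probes differ in affinity, so the size of the signal served only to choose which genes to give in full, and no gene is called more abundant than another. Arrays have no read depth, and 3 per group limit the precision. Over the 11503 probe sets with a mean above the median of all values, the root mean square SD of the 3 replicates was 0.44 for the sorted cells and 0.19 for the meristems. Deviations from the group mean correlated weakly between same-numbered arrays (r = 0.12, 0.25 and 0.11, against -0.23 to 0.05 for other pairs). The labels state no pairing. Each call below is also given with the replicate number as a block where that changes it. The CYCB1;1 probe set was not analysed here. Earlier results of these data were known when the mitosis list was chosen. Its genes therefore cannot test the G2/M label, and their values are a description only. All 4 measured genes of the mitosis list (AUR1, AUR2, BUBR1 and SCL28) were called higher in the sorted cells, by 1.86 to 2.73 log2, and 0 of the 4 with the replicate block (adjusted p from 0.0539 to 0.110 in limma).

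Most of the family gave no signal in either kind of sample. Of the 45 genes, 33 (73.3%) stayed in the floor band on all 6 arrays, and 26 of those stood at exactly 2.27 on every array. Over all probe sets 37.8% stayed in the band and 21.0% stood at the lowest value throughout. The other 12 genes rose above the band on at least 1 array. They were 5 of the 7 measured SBT1 genes, all 4 measured SBT2 genes and the 1 listed SBT6 gene. With them were 1 of 16 SBT3 genes, 1 of 12 SBT4 genes and 0 of 5 SBT5 genes. The 2 shared probe sets, for AT3G46840 with AT3G46850 and for AT4G10520 with AT4G10530, stood at 2.27 on every array.

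**Figure D1:**
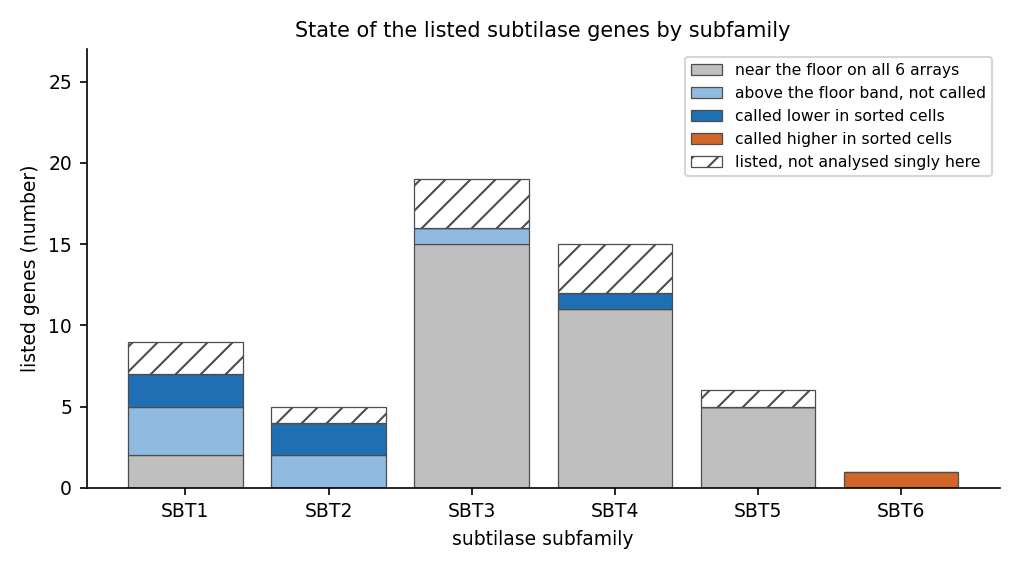
Number of listed subtilase genes (vertical axis) in each subfamily (horizontal axis), stacked by state: in the floor band on all 6 arrays, above it but not called, called lower or higher in the sorted cells, or listed but not analysed singly here. SBT3, SBT4 and SBT5 are almost wholly in the floor band (15 of 16, 11 of 12 and 5 of 5), while all 4 measured SBT2 genes lie above it.

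Of the 45 genes, 5 were lower in the sorted G2/M cells and 1 was higher. The falling genes were SBT4.12, AT4G20430 and AT5G44530 of SBT2, and ARA12 and AT3G14240 of SBT1; the rising gene was TPP2. These are 11.1% and 2.22% of the 45 genes, against 7.06% called lower and 4.44% called higher over all probe sets, and no more is read from the counts. Because 26 of the 45 genes stand at the lowest value throughout, the floor fixes the median difference of the 45 at 0.00 log2. For the 12 genes above the band the median difference was -0.77 log2, beside 0.03 over all probe sets above it, and 10 of the 12 had a lower mean in the sorted cells; a gene could enter these 12 through its higher group alone, so these values are a description only. The calls depended on the replicates. With the replicate block 2 genes were lower (SBT4.12 and AT4G20430) and 0 higher, and leaving out sorted replicate 3 or meristem replicate 1 left 3 lower.

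**Figure D2:**
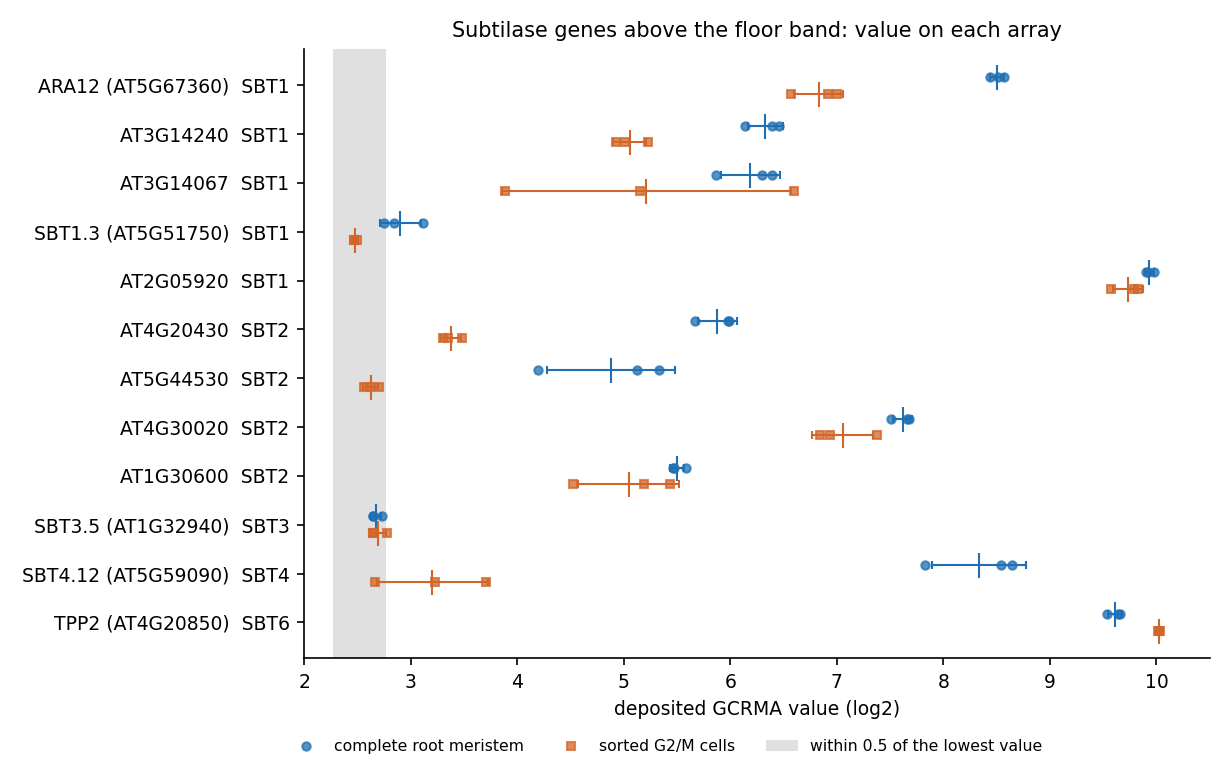
Deposited log2 value (horizontal axis) of the 12 subtilase genes above the floor band on each array, with circles for the 3 meristems and squares for the 3 sorted samples; vertical ticks are group means, bars are SD (n = 3 each), and the grey band marks values within 0.5 of the lowest value. SBT4.12 spans the widest distance between groups, from 8.34 to 3.20, and TPP2 is the 1 gene whose 3 sorted values all lie above its 3 meristem values.

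SBT4.12 had the largest difference among the 45 measured genes. In vitro and in plants it has been linked, with SBT4.13 and SBT5.2, to the maturation of the abscission peptide IDA. Its values were 8.64, 7.83 and 8.54 in the meristems and 3.71, 2.67 and 3.23 in the sorted cells. The groups lay far apart, with sorted replicate 2 inside the floor band and the other two sorted arrays above it. The difference was -5.13 log2 (SE 0.38, limma adjusted p = 0.00529), with group means of 8.34 ± 0.44 and 3.20 ± 0.52 (SD, n = 3 each). Between same-numbered arrays it was -4.93, -5.16 and -5.31, a narrower spread than within either group. With the replicate block its adjusted p was 0.0340 (SE 0.10), and it was called under all 14 alternative settings (another prior, 2 blocks, a filter, other scalings, array weights and each array left out).

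The neighbours of SBT4.12 in the genome gave no such signal. In RefSeq gene order on chromosome 5, SBT4.12 opens a run of 5 listed subtilases, followed by AT5G59100, SBT4.13 (AT5G59120), AT5G59130 and AT5G59190. AT5G59100, SBT4.13 and AT5G59130 stood at 2.27 on all 6 arrays, and AT5G59190 reached 2.33 on 1 sorted array and 2.27 on the others. The adjacent gene AT5G59100 has 0 protein-coding genes between it and SBT4.12. So 1 of the 5 genes of the run had a measurable level in the meristem.

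The same held across the family's other runs. Listed subtilases separated by at most 5 protein-coding genes formed 10 runs. Of the 33 genes in the floor band on all arrays, 26 lay in such a run, against 2 of the 12 genes above it, SBT4.12 and SBT3.5. Every run consisted of SBT3, SBT4 or SBT5 genes, so place in a run and subfamily cannot be told apart in this contrast. The measured genes of these subfamilies outside a run (AT2G39850, AT4G15040, AT5G03620, AT5G11940 and AT5G59810) were in the floor band on all arrays too. SBT3.5 (AT1G32940), known for processing the pectin methylesterase PME17 in roots, only just left the band: 2.65, 2.65 and 2.73 in the meristems and 2.65, 2.65 and 2.78 in the sorted cells. Its groups overlapped. The other 4 genes of its run on chromosome 1, SBT3.3 (AT1G32960, a gene of immune priming) among them, stood at 2.27 on every array. The run AT5G58810 to AT5G58840 of SBT4 and the 3 measured genes of the run AT4G10510 to AT4G10550 of SBT3 stayed in the floor band throughout.

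**Figure D3:**
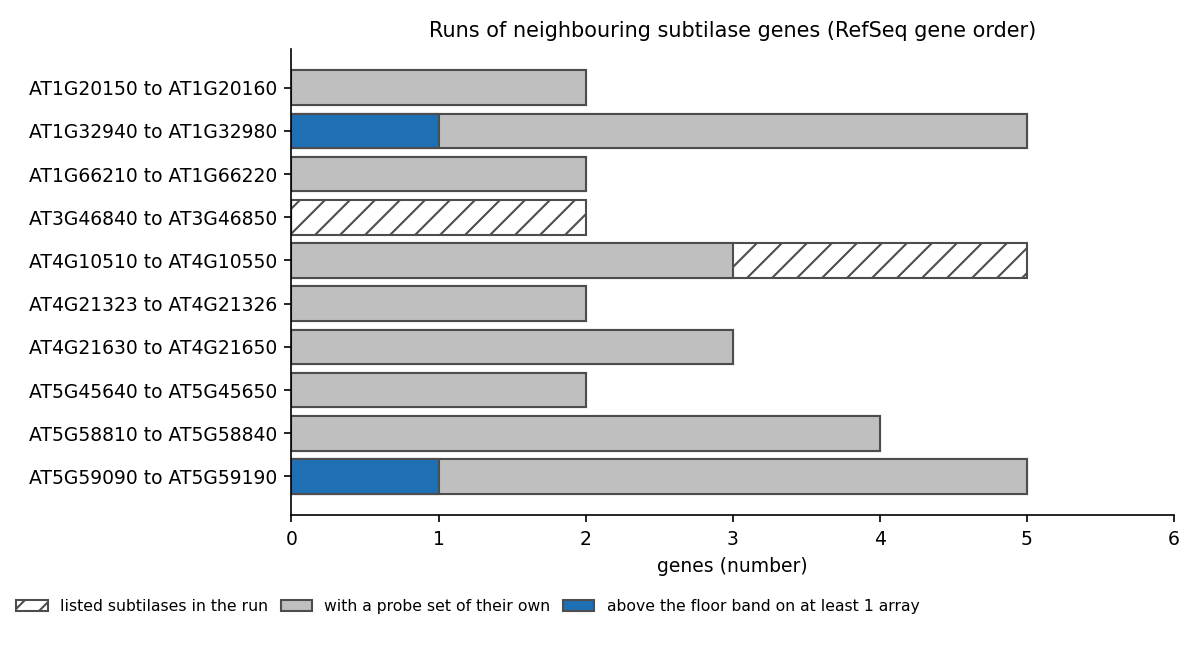
Number of genes (horizontal axis) in each of the 10 runs of listed subtilases that have at most 5 protein-coding genes between neighbours; hatched bars count the listed genes, grey bars those with a probe set of their own and blue bars those above the floor band on at least 1 array. The blue bar reaches 1 gene in the runs of SBT3.5 and SBT4.12 and is absent in the other runs.

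All 4 measured SBT2 genes lay above the floor band, and all 4 had a lower mean in the sorted cells with no overlap between groups. Over all probe sets 16.3% were lower without overlap. That base includes the 37.8% in the floor band on all 6 arrays, and the share above the band was not counted. AT4G20430 stood at 5.99, 5.67 and 5.98 in the meristems and at 3.35, 3.30 and 3.48 in the sorted cells. Each group was tight and they lay far apart. It fell by 2.50 log2 (SE 0.11, limma adjusted p = 0.00268), or 5.67-fold, was called under all 14 alternatives and kept an adjusted p of 0.0443 with the replicate block. AT5G44530 had 5.12, 4.20 and 5.33 in the meristems and 2.62, 2.56 and 2.70 in the sorted cells. All 3 sorted values were inside the floor band, so the difference of -2.26 log2 (SE 0.33, limma adjusted p = 0.0241) ends at background and is given without a fold. Its spread lay in the meristems (SD 0.60, against 0.07), with meristem replicate 2 the low one. Its call was lost with a block for replicate number (limma adjusted p = 0.104) and with a spike-in block (limma adjusted p = 0.100). The spike-in block was inferred from the values: arrays were split at the largest gap in mean poly-A control signal. Sorted replicates 2 and 3 fell on the low side. The call was also lost without any 1 array other than meristem replicate 2 (limma adjusted p from 0.0579 to 0.100).

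The other SBT2 genes differed less and were not called. AT4G30020 had 7.51, 7.66 and 7.68 in the meristems and 6.84, 7.38 and 6.94 in the sorted cells, with sorted replicate 2 closest to the meristems. The difference was -0.56 log2 (SE 0.17, limma adjusted p = 0.123). Of 14 alternatives 4 called it: array weights, filtering at the median, reference centring and leaving out sorted replicate 2 (-0.73 log2, limma adjusted p = 0.0274). AT1G30600 had 5.46, 5.58 and 5.47 in the meristems and 4.52, 5.43 and 5.19 in the sorted cells, a difference of -0.46 log2 (SE 0.26, limma adjusted p = 0.401). Here sorted replicate 1 was the low array and replicate 2 came within 0.03 of the lowest meristem. Without sorted replicate 1 the difference was -0.19 log2, and with the spike-in split as a block, where sorted replicate 1 alone stands against the meristems, it was -0.98 log2 and called (limma adjusted p = 0.0284). Whether the 4 differences within SBT2 differ from each other was not tested.

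SBT1 holds secreted proteases with known roles in seed coat and stomata. ARA12 (AT5G67360), which is known from the release of seed coat mucilage, had 8.57, 8.44 and 8.51 in the meristems and 6.57, 6.92 and 7.00 in the sorted cells. The groups did not overlap and the meristems were nearly alike. It fell by 1.68 log2 (SE 0.13, limma adjusted p = 0.00594), or 3.20-fold, and still had a mean of 6.83 ± 0.23 (SD, n = 3) in the sorted cells. With the replicate block its adjusted p was 0.0792, the 1 of 14 alternatives that ended the call. AT3G14240 had 6.39, 6.46 and 6.14 in the meristems and 4.93, 5.23 and 5.01 in the sorted cells, again without overlap. It fell by 1.27 log2 (SE 0.13, limma adjusted p = 0.00968), or 2.42-fold. Its adjusted p was 0.0676 with the replicate block, 0.0535 without meristem replicate 1 and 0.0518 without sorted replicate 3.

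AT2G05920 kept a high signal in both groups. Its values were 9.90, 9.98 and 9.92 in the meristems and 9.57, 9.83 and 9.79 in the sorted cells. The sorted values were all lower than the meristem values, but the difference of -0.20 log2 (SE 0.08, limma adjusted p = 0.224) was not called. Its 95% interval from the fit, unadjusted, was -0.42 to 0.01 log2. With the spike-in split as a block it was called at -0.36 log2 (limma adjusted p = 0.0236). SBT1.3 (AT5G51750) lay at the edge of the floor band, at 2.75, 3.12 and 2.84 in the meristems and 2.50, 2.47 and 2.47 in the sorted cells (difference -0.42 log2, SE 0.11, limma adjusted p = 0.0863); it was called lower without meristem replicate 2. SBT1.1 (AT1G01900, listed as SBTI1.1 in RefSeq), known to cut the precursor of the growth peptide phytosulfokine, and AT5G67090 stood at 2.27 on all 6 arrays.

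AT3G14067 was the 1 gene above the floor band in SBT1 whose groups overlapped. It had 6.39, 6.30 and 5.87 in the meristems and 6.60, 3.89 and 5.15 in the sorted cells. Sorted replicate 1 was above every meristem, and replicate 2 was 2.71 log2 below replicate 1. The difference of -0.97 log2 (SE 0.76, limma adjusted p = 0.579) was not called, and the SD in the sorted cells was 1.36 against 0.28 in the meristems. The difference was -1.67 log2 without sorted replicate 1 and -0.31 log2 without sorted replicate 2, and neither was called. Array weights, a fit that rests on sorted replicate 3, called it lower (-1.09 log2). SBT4.12 also had its highest sorted value in replicate 1 and its lowest in replicate 2, a gap of 1.04 log2. By contrast, ARA12, AT1G30600, AT2G05920, AT3G14240 and AT4G30020 were lowest in replicate 1. Over the 12 genes, replicate 1 was above replicate 2 for 5 and below it for 6. Some of these gaps were very small: 0.03 log2 for SBT1.3, 0.05 for AT4G20430, 0.06 for AT5G44530 and -0.01 for TPP2. On the same arrays EXPA7, an expansin of root hair cells and the 1 measured gene of 6 in the epidermis and root hair list, had 7.07 in sorted replicate 1, 2.42 and 2.69 in the other sorted samples and 2.27 to 2.29 in the meristems. The poly-A spike-in controls had a mean of 5.81 in sorted replicate 1, of 3.13 and 2.97 in sorted replicates 2 and 3 and of 6.24 to 7.27 in the meristems. The part of either in the spread of AT3G14067 was not tested. With the arrays split by spike-in as a block, which rests on sorted replicate 1 alone, AT3G14067 had a difference of 0.41 log2 (SE 0.61, limma adjusted p = 0.974).

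TPP2 (AT4G20850), the 1 listed SBT6 gene, stands apart from the other genes named here in its known biology. Tripeptidyl peptidase II is a large cytosolic enzyme, known from mammals to trim peptides that the proteasome releases. The values of TPP2 were 9.66, 9.64 and 9.54 in the meristems and 10.02, 10.03 and 10.01 in the sorted cells. All 3 sorted values lay above all meristem values. Over all probe sets, with the 37.8% in the floor band on all 6 arrays included, 14.4% were higher without overlap. It rose by 0.41 log2 (SE 0.04, limma adjusted p = 0.00756), or 1.33-fold. The call was lost with the replicate block (adjusted p = 0.0690) and with a trended robust prior (0.0746).

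**Figure D4:**
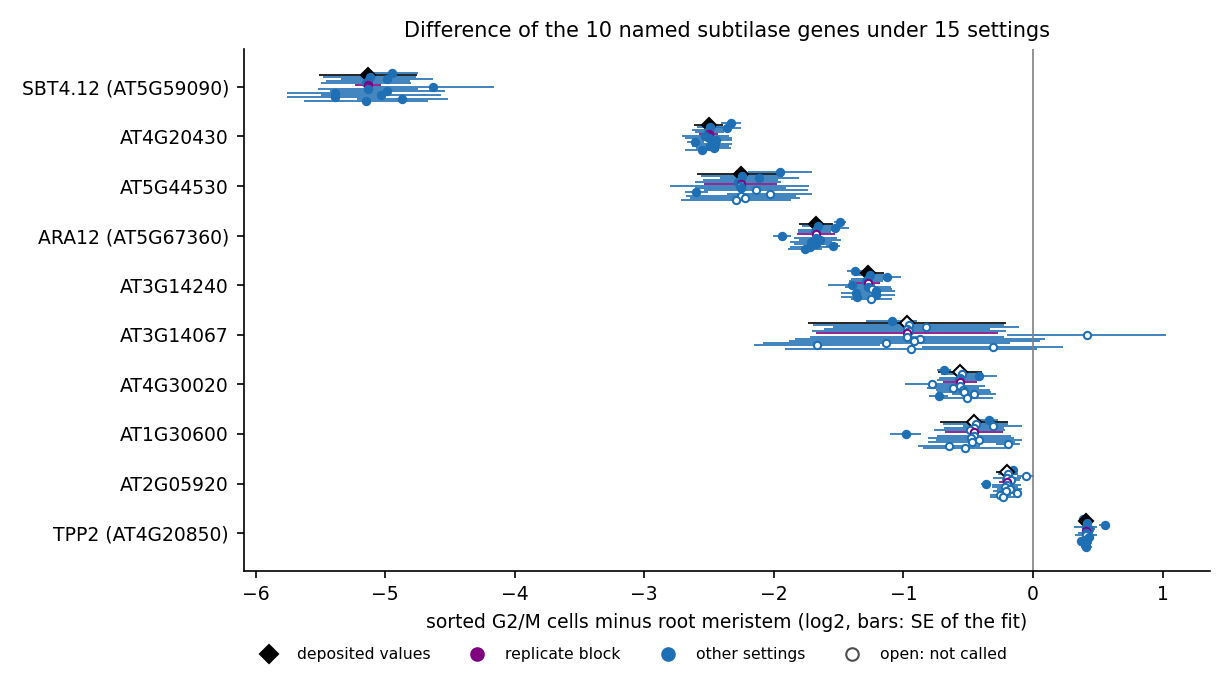
Difference between sorted cells and meristems (horizontal axis, log2, bars are the SE of the fit) for the 10 subtilase genes given in full, from the deposited values (diamonds), with the replicate block (purple) and under the other alternative settings (blue); filled symbols were called and open ones were not. SBT4.12 and AT4G20430 are filled throughout, and AT3G14067 is the 1 gene with a value on both sides of 0.

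The remaining SBT4 and SBT5 genes showed no level that could be compared. SBT5.2 (AT1G20160), known to cut the stomatal peptide EPF2, and AT1G20150 stood at 2.27 on all arrays, and SBT5.4 (AT5G59810) at 2.30. AT5G45650 had 2.28 on the 3 sorted arrays and 2.32, 2.61 and 2.33 in the meristems, a separation without overlap that lies wholly in the floor band (difference -0.14 log2, limma adjusted p = 0.470). With it, 10 of the 45 genes were lower without overlap and 1 was higher, beside 16.3% and 14.4% of all probe sets. On these arrays a gene in the floor band may be absent or below what its probes resolve, and these cannot be told apart.

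Of 16 listed substrates of subtilases 4 were analysed and 0 of these were called; the other 12 were not analysed here. The peptide precursors CLE40 and CIF2 stayed in the floor band. The membrane-bound transcription factors bZIP17 and bZIP28, which a Golgi subtilase not in this set cuts under stress, had differences of -0.21 (limma adjusted p = 0.193) and 0.00 log2 (1.00). Of 2 propeptide-like inhibitors of subtilases 1 was analysed. SPI-1 (AT1G71950) had 7.26, 7.22 and 7.05 in the meristems and 7.69, 7.45 and 7.51 in the sorted cells. The groups did not overlap, but the difference of 0.37 log2 (SE 0.09, limma adjusted p = 0.0825) was not called.

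The tissue markers came from lists chosen with earlier results of these data known, and the measured ones moved in both directions. EXPA7 of the epidermis and root hair list had a higher mean in the sorted cells, by 1.78 log2 (SE 1.44, limma adjusted p = 0.595). It was not called, and sorted replicate 1 was its high array (7.07). Both measured genes of 4 in the cortex and endodermis list were lower in the sorted cells. PEP (AT1G09750) had 7.91, 7.57 and 7.14 in the meristems and 3.42, 3.11 and 2.54 in the sorted cells, a difference of -4.52 log2 (SE 0.33, limma adjusted p = 0.00512; 0.0263 with the replicate block). CO2 (AT1G62500) fell by 0.79 log2 (SE 0.11, limma adjusted p = 0.0191; 0.129 with the replicate block), from 4.10 to 4.43 in the meristems to between 3.38 and 3.51 in the sorted cells. The listed genes of the root cap (4), the stem cell niche (3) and the vascular tissue (6) were not analysed here. The part of tissue make-up in the differences of SBT4.12 and the other subtilases was not tested.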

How the data were processed

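The authors deposited log2 values, 1 per probe set and array, made with GCRMA per the submitters' processing notes (background correction from probe sequence, normalization across arrays, summary per probe set); its version and the genome build are not given in the sources used here. Of 22810 probe sets, 64 Affymetrix controls were left out. Probe sets were named by the platform's gene identifier through RefSeq's gene table (assembly TAIR10.1), which was used for names and gene order only. The deposited values were fitted in R 4.3.3 with limma 3.58.1 (lmFit, eBayes without trend or robust prior), with no filter and no block, with Benjamini-Hochberg adjustment over the 22746 probe sets tested. The prior had 0.391 degrees of freedom beside 4 residual ones. The labels do not state that equal replicate numbers pair the samples. Over 11503 probe sets the deviations of same-numbered arrays correlated with r = 0.12, 0.25 and 0.11, all over 0.1. On this hint from the data the replicate block was run as an alternative, while the main fit stayed unpaired. Given in full were the called genes, the 6 with the highest mean in each group and up to 4 uncalled ones with the largest difference whose higher group mean was above 3.71; SBT1.3, SBT3.5 and AT5G45650 were added after their values were seen. The members and lists were chosen with earlier results of these data known. Alternatives were a trended robust prior, replicate and spike-in blocks, a filter, other scalings, array weights and leaving out each array. The spike-in split was inferred from the poly-A control signal. No gene or protein sequences were used here.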

Additional observations from a re-analysis of the deposited data

How the results depend on the processing

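Of the 5 subtilase genes called lower in the sorted cells and the 1 called higher, the replicate block left 2 and 0, and the trended robust prior left 5 and 0; the block changed no call of another subtilase gene. Array weights gave 10 lower and 3 higher, but the weight of sorted replicate 3 was 167 while no other array exceeded 1.53, so that fit rests on this array. The 10 were the 5 of the main fit with AT1G30600, AT2G05920, AT3G14067, AT4G30020 and SBT1.3. Of the 3 higher, AT5G59190 (0.06 log2) was in the floor band on all arrays and SBT3.5 (0.11 log2) only just above it. Centring on 5 reference genes, chosen after seeing the data, gave 6 lower and 33 higher. That centring moved the median difference of the 11503 probe sets above the median from 0.02 to 0.17 log2, and 32 of those 33 genes were in the floor band on every array, where the differences (0.15 to 0.22 log2) were close to the shift; TPP2 was the other. Leaving out 1 array at a time gave between 3 and 7 lower and kept 1 higher each time. The 7 arose without meristem replicate 2. They include AT5G45650 (-0.045 log2), which was in the floor band on all arrays. Over all probe sets, the counts of 1009 higher and 1605 lower became 79 and 156 with the replicate block, 516 and 733 with the trended robust prior, and 5460 and 4498 with array weights. The higher count was 1631 with the spike-in block, 1645 after filtering at the median and 12174 on reference centring. Without 1 array it ran from 323 to 1752, and the lower count from 636 to 1631. AT3G14067 changed sign with the spike-in block (0.41 log2), where the difference is that of sorted replicate 1 alone (6.60) from the meristems. The 10 genes given in full kept their sign in all other fits. Signal over background limits the 33 genes in the floor band, for which a difference below the detection of these probes cannot be seen.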
